A study of Mus musculus with 59 samples.

Results

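Genes of the cell cycle and of DNA replication were followed in the brown adipose tissue (BAT) of mice, the fat depot that burns lipids to make heat. The set was a list of 42 gene symbols, chosen by name with earlier results of these data known and with no measured value in the rule, out of 55341 genes counted in every library, and all 42 were found in the count tables. It held 3 genes of the switch from G1 to S phase (Ccne1, Ccne2, E2f1), 6 subunits of the replicative helicase (Mcm2 to Mcm7), 5 genes of DNA synthesis and nucleotide supply (Pcna, Rrm1, Rrm2, Tyms, Tk1), 4 mitotic cyclins and their kinase (Ccna2, Ccnb1, Ccnb2, Cdk1), 6 genes of chromosome structure (Mki67, Top2a, Smc2, Smc4, Ncapg, Ncapd2), 8 mitotic kinases and checkpoint genes (Aurka, Aurkb, Plk1, Bub1, Bub1b, Ttk, Pbk, Birc5), 8 spindle and kinetochore genes (Tpx2, Kif11, Kif23, Kif20a, Cenpe, Cenpf, Nusap1, Prc1) and 2 genes of the anaphase-promoting complex pathway (Cdc20, Ube2c).

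The 59 libraries each came from the BAT of 1 male C57BL/6J mouse aged 8 to 12 weeks, in 3 experiments that were counted and normalised separately. In the thyroid hormone (TH) experiment every mouse received propylthiouracil (PTU), a drug that blocks hormone synthesis: 4 wild-type (WT) mice had PTU alone and 4 mice each were taken 3, 6, 12 and 24 h after an injection of the thyroid hormones T3 and T4, while 5 BATKO mice had PTU alone and 5 were taken at 24 h. In the temperature experiment, CTRL and BATKO mice were kept at 30 °C (4 and 5 mice) or at 4 °C (3 and 4 mice), with 24 h of cold by the file description. In the diet experiment, CTRL mice received chow (4 mice) or a high-fat diet (HFD, 4 mice) and BATKO mice chow (2 mice) or HFD (3 mice), for 3.5 days by the file description. The sources used here name neither the gene changed in BATKO mice nor the promoter that drives the change, nor what CTRL mice carry, so the knockout itself was not checked against the counts. The p-values measure the spread between these mice.

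A cell that commits to division first makes cyclin E and frees the E2F factors, which switch on the genes of DNA replication, and only later makes the mitotic cyclins, kinases and spindle proteins. The late genes share a promoter element called the cell cycle genes homology region (CHR), often near CCAAT boxes, whereas many replication genes carry E2F sites. Mature brown adipocytes seldom divide, and proliferation in adult BAT is known mainly from progenitor, endothelial and immune cells.

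The promoters show this division between early and late genes in the sequence itself, apart from any count. RefSeq promoter windows on GRCm38.p6, from 250 bases before to 50 bases after a gene's start, were found for 34 of the 42 genes (36 windows), and Tpx2, Smc4, Ccne2, Mcm4, Aurkb, Ccna2, Pbk and Kif20a had no entry. On either strand, the CHR letters TTTGAA were present in 52.8% of the member windows and in 17.9% of all 32851 windows. The E2F letters (TTTCCCGC, TTTGGCGC or TTCCCGC, the last contained in the first) were present in 22.2% of member windows against 5.06% of all, and the letters CCAAT in 83.3% against 37.4%. The motifs fell to different roles. CHR letters were in 18 of the 23 windows of mitotic and chromosome genes (78.3%) and in 1 of the 13 windows of G1 to S, helicase and DNA synthesis genes (7.69%). E2F letters were in 2 of the 23 (8.70%) and 6 of the 13 (46.2%), with 5 of the 6 helicase windows among them. CHR and CCAAT letters stood together in 52.8% of member windows and in 6.95% of all windows. A match is a description of letters and not a measured binding site.

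The upstream part of 6 windows is shown for the genes on which the results below turn, from 150 to 10 bases before the RefSeq start, 5′ to 3′ in the direction of transcription, with capitals marking CHR, CCAAT or E2F letters on either strand (TTCAAA and ATTGG are the CHR and CCAAT letters read from the other strand). Ube2c (chr2:164769779-164769919, + strand), Top2a (chr11:99024199-99024339, − strand), Mki67 (chr7:135716389-135716529, − strand) and Cdk1 (chr10:69352922-69353062, − strand) are mitotic genes with CHR and CCAAT letters. Mcm6 (chr1:128359715-128359855, − strand) and Rrm1 (chr7:102441545-102441685, + strand) are replication genes with E2F and CCAAT letters and no CHR letters in the stretch shown.
Ube2c: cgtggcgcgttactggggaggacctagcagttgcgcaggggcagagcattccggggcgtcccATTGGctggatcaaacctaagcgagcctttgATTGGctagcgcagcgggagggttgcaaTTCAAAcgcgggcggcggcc
Top2a: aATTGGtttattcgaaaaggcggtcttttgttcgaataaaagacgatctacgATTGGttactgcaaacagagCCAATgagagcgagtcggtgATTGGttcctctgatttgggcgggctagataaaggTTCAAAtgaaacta
Mki67: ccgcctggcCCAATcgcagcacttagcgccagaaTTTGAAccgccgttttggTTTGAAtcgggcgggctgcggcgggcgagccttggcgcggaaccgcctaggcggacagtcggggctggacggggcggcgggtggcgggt
Cdk1: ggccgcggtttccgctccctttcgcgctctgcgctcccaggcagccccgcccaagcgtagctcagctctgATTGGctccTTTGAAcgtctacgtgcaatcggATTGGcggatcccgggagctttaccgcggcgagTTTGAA
Mcm6: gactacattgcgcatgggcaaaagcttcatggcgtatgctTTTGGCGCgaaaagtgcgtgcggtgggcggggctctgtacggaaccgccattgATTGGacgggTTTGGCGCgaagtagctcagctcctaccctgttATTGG
Rrm1: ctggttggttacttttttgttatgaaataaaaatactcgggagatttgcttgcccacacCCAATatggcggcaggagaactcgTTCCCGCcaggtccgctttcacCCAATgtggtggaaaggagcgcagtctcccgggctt

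In the stretches shown, the CHR letters of Ube2c lay 29 bases before the start and CCAAT letters 57 and 88 bases before it. Top2a carried CHR letters at 23 bases and CCAAT letters at 4 places there, of 2 and 6 matches in its whole window, while Mki67 carried the CHR letters at 98 and at 116 bases. Mcm6 held the E2F letters TTTGGCGC at 47 and 110 bases, and Rrm1 held TTCCCGC at 67 bases.

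Library totals ran from 7805938 to 18073627 reads counted in the TH experiment, from 8008348 to 12887313 in the temperature experiment and from 7612059 to 11533900 in the diet experiment, of which 39.2% to 55.7% lay on mitochondrial genes. The 42 genes together had only 462 to 1272, 478 to 1231 and 664 to 2356 of these reads per mouse, which sets the precision of what follows. No mouse pair within a group agreed as closely as sampling noise, since a chi-square test of their counts gave at least 7.47 for each degree of freedom in all 91 pairs. Values per mouse below are normalised counts, the counts scaled to a common library size within an experiment, and are not comparable between experiments to better than that scaling allows.

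The genes were expressed at low levels in BAT. A mean above 10 normalised counts, the filter for testing, was reached by 14 of the 42 genes in the TH experiment, by 17 in the temperature experiment and by 30 in the diet experiment, and in these experiments 21, 13 and 5 genes had a mean under 5. The 13 genes above the filter in all 3 experiments were Ccne2, Mcm2, Mcm3, Mcm4, Mcm6, Mcm7, Ncapd2, Pcna, Rrm1, Smc2, Smc4, Tyms and Ube2c, among them 5 of the 6 helicase genes. Another 14 passed in the diet experiment alone (Bub1b, Ccna2, Ccnb1, Ccnb2, Cdk1, Cenpe, Kif11, Kif20a, Kif23, Mcm5, Pbk, Prc1, Top2a, Tpx2), and all but Mcm5 of these belong to the mitotic and chromosome roles. Mki67, Nusap1 and Rrm2 passed in the temperature and diet experiments, and Ccne1 in the TH and temperature experiments. The 11 genes that passed in none were Aurka, Aurkb, Birc5, Bub1, Cdc20, Cenpf, E2f1, Ncapg, Plk1, Tk1 and Ttk.

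**Figure D1:**
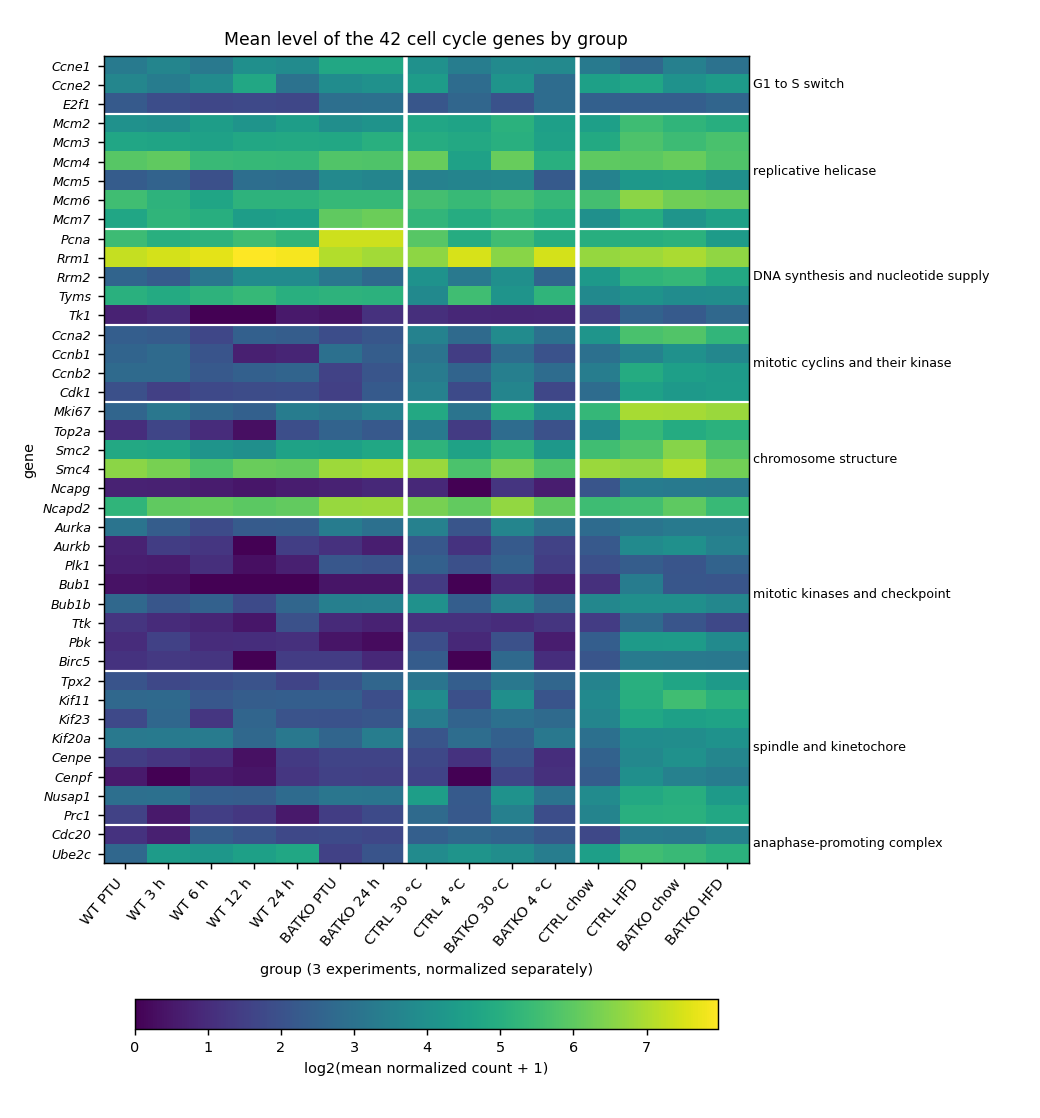
Heat map of the level of each of the 42 genes (vertical axis, by role) in the 15 groups (horizontal axis, by experiment), as log2 of the mean normalised count plus 1 in colour. Most helicase and DNA synthesis genes, with Tk1 an exception, are visible in every group, while the mitotic genes are near 0 in most TH groups and higher in the diet groups.

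The median gene of the helicase role stood at 31.6, 30.9 and 38.1 normalised counts in the TH, temperature and diet experiments. The medians of the spindle role were 3.28, 6.26 and 20.9, and those of the mitotic cyclins and their kinase 3.69, 7.47 and 18.1. Mitotic kinases and checkpoint genes were lowest, at 1.16, 2.92 and 7.13. Per kilobase of exon, the highest levels in the TH experiment were those of Pcna (33.5), the clamp that holds DNA polymerase on its template, Smc4 (16.8), a core subunit of condensin, and Rrm1 (16.0), the large subunit of ribonucleotide reductase. In the diet experiment Smc4 (19.7), Mcm4 (17.0) and Mcm6 (15.3) led on the same scale. The ranking in the TH experiment took the mice of both genotypes together. Pcna had 24 to 63 reads in the WT mice and 133 to 220 in the BATKO mice, which raised its mean. Pcna is uncertain throughout, since a processed copy, Pcna-ps2, was counted beside it.

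Mitotic transcripts were few in PTU-fed WT mice, and also in the treated WT mice. In the PTU-fed WT mice, 12 of the 42 genes had at most 3 reads in every mouse. The number was 11, 15, 15 and 9 in WT mice at 3, 6, 12 and 24 h. It was 7 in each BATKO group of the TH experiment and 11 in the CTRL and in the BATKO mice at 4 °C. For Top2a, which untangles replicated DNA, the 30 mice of the TH experiment ranged from 0 to 9.72 normalised counts. Most of these genes could not be compared at this depth. Ccnb1, a mitotic cyclin under the filter, had 2 to 8 reads in the PTU-fed WT mice and 0 to 1 in the mice at 12 h and at 24 h, without overlap and not tested.

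**Figure D2:**
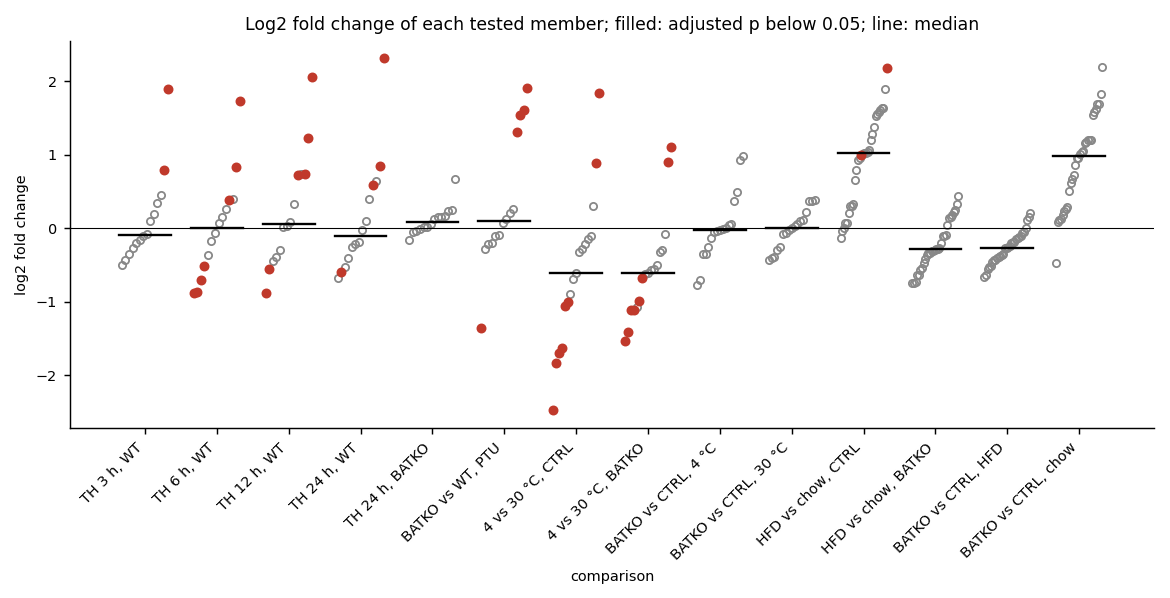
The log2 fold change of each tested gene of the set (vertical axis) in 14 comparisons (horizontal axis). Filled red points have an adjusted p below 0.05, open grey points do not, and the line marks the median of the genes tested. The points lie mostly below 0 in both cold comparisons and mostly above 0 for HFD in CTRL mice and for BATKO against CTRL mice on chow.

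After TH was given to PTU-fed WT mice, genes of the set were called in both directions. Of the 14 genes tested over the 20 WT mice, 8 passed the test at 1 time or more, where 46.9% of all genes tested did. Ube2c, the ubiquitin-conjugating enzyme that works with the anaphase-promoting complex, and Ncapd2, a subunit of condensin I, rose at all 4 times, and Rrm1 rose at 6, 12 and 24 h. Mcm4, a helicase subunit, fell at 6, 12 and 24 h, and Smc2, the partner of Smc4 in condensin, fell at 6 and 12 h. Ccne2, which encodes a cyclin E, rose at 12 h, and Mcm6 and Smc4 fell at 6 h. The times share the PTU-fed WT mice, so their values are not independent of each other.

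At 3 h, 2 of the 14 genes were called at an adjusted p below 0.05, both higher, where 9.19% of all 13003 genes tested were called (5.10% higher and 4.09% lower). Fits with 1 mouse left out called 1 to 3, and without PTU-fed WT mouse 5 or 3 h mouse 8 the 1 call was Ube2c. At 6 h 7 genes were called, 3 higher and 4 lower, where 23% of all genes were (12.1% higher and 10.9% lower), but edgeR without a filter called 4 (10.4% of all genes), and fits with 1 mouse left out called 4 to 6, with 4 without mouse 15 of the 6 h group. The 12 h mice had 6 calls, 4 higher and 2 lower, beside 25.7% of all genes (13.6% higher and 12.1% lower). The 24 h mice had 4 calls, 3 higher and 1 lower, beside 32.7% (17.2% higher and 15.5% lower). The median log2 fold change of the 14 genes stayed between -0.10 and 0.06 at the 4 times, beside medians of -0.02 to 0.01 over all genes. The set had no common direction after TH by this measure.

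Ube2c, on chromosome 2 of GRCm38 (164769898 to 164778822, + strand), had 3.01, 7.18, 3.32 and 8.06 normalised counts in the 4 PTU-fed WT mice, which were 3 to 7 reads each. It had 27.8, 14.8, 16.6 and 20.7 at 3 h and 12.5, 20.1, 24.3 and 45.9 at 24 h. Each treated WT mouse at 3, 6, 12 and 24 h stood above all 4 PTU-fed mice. The log2 fold change was 1.90 at 3 h (SE 0.41, adjusted p = 0.00514) and 1.74 at 6 h (SE 0.42, adjusted p = 0.00476). It was 2.05 in the 12 h mice (SE 0.42, adjusted p = 0.000946) and 2.31 in the 24 h mice (SE 0.40, adjusted p = 0.000146). Ube2c shares 592 exonic bases (22.8% of its exons) with Tnnc2, a troponin gene on the opposite strand, and whether the counting used strand is not given in the sources used here. In all, 10 of the 42 genes share exonic bases with a protein-coding gene on the opposite strand, and reads of both could then be counted together. Tnnc2 had a mean of 106 normalised counts in the PTU-fed WT mice, of 26.8 and 27.4 in the 3 and 12 h groups and of 221 and 190 in the 6 and 24 h groups, and was called in none of them. The effect of the shared bases on the Ube2c values was not tested.

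Ncapd2, on chromosome 6 (125168007 to 125191701, − strand), had 37.2, 35.9, 44.8 and 27.6 normalised counts in the PTU-fed WT mice. It had 64.9, 82.6, 60.3 and 51.3 at 3 h and 72.4, 66.5, 58.4 and 67.5 at 24 h. The groups did not overlap at 3, 6 and 24 h, while at 12 h the lowest mouse (41.2) lay inside the PTU range. The log2 fold change was 0.80 at 3 h (SE 0.20, adjusted p = 0.0148) and 0.85 at 24 h (SE 0.20, adjusted p = 0.00273), with 0.84 and 0.74 between them. The 3 h call was lost without PTU-fed WT mouse 5 (adjusted p = 0.0559) or without 3 h mouse 8 (adjusted p = 0.0601).

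Rrm1, on chromosome 7 (102441695 to 102469771, + strand), had the highest mean count of the set in the TH experiment. In every BATKO mouse of that experiment, Pcna had more reads than Rrm1. Rrm1 stood at 165, 155, 149 and 142 normalised counts in the PTU-fed WT mice and at 296, 246, 247 and 217 at 12 h. At 6, 12 and 24 h all 12 mice lay above the PTU-fed mice. The log2 fold change was 0.38 at 6 h (SE 0.12, adjusted p = 0.0257) and 0.73 at 12 h (SE 0.12, adjusted p = 0.000122). After 24 h it was 0.59 (SE 0.12, adjusted p = 0.000702). Rrm1 was the only gene of the nucleotide role to pass the test in this course, since Pcna and Tyms did not and Rrm2 and Tk1 were under the filter.

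Ccne2 (chromosome 4, 11191351 to 11204779, + strand) had a course of its own. It had 15.1, 10.8, 9.13 and 11.5 normalised counts in the PTU-fed WT mice, 40.1, 24.5, 19.4 and 22.5 at 12 h, and 8.74, 2.51, 9.74 and 7.20 at 24 h. The mice at 12 h were all above the PTU-fed mice (log2 fold change 1.22, SE 0.30, adjusted p = 0.00456). The log2 fold change at 24 h was -0.68 and missed the threshold (adjusted p = 0.149). Ccne2 shares 17.4% of its exonic bases with Ints8 on the opposite strand, which had a log2 fold change of -0.22 at 12 h and was not called.

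Mcm4 (chromosome 16, 15623897 to 15637400, − strand) had 59.3, 61.0, 66.4 and 49.5 normalised counts in the PTU-fed WT mice and 37.4, 33.9, 40.9 and 43.2 at 24 h, without overlap (log2 fold change -0.60, SE 0.18, adjusted p = 0.0149). At 6 h it changed by -0.52 on the log2 scale (adjusted p = 0.0415) and at 12 h by -0.56 (adjusted p = 0.0293), calls that were each lost in 6 of 8 fits with 1 mouse left out. Mcm6 had 37.2, 47.8, 58.1 and 39.2 before TH and 29.5, 21.8, 26.3 and 22.7 at 6 h (log2 fold change -0.88, SE 0.19, adjusted p = 0.0024). No Mcm6 value at 6 h reached the PTU range. Smc4 fell by 0.87 at 6 h (adjusted p = 0.00849), and Smc2 fell by 0.71 at 6 h (adjusted p = 0.0478, close to the threshold) and by 0.89 at 12 h (adjusted p = 0.0186), all on the log2 scale.

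**Figure D3:**
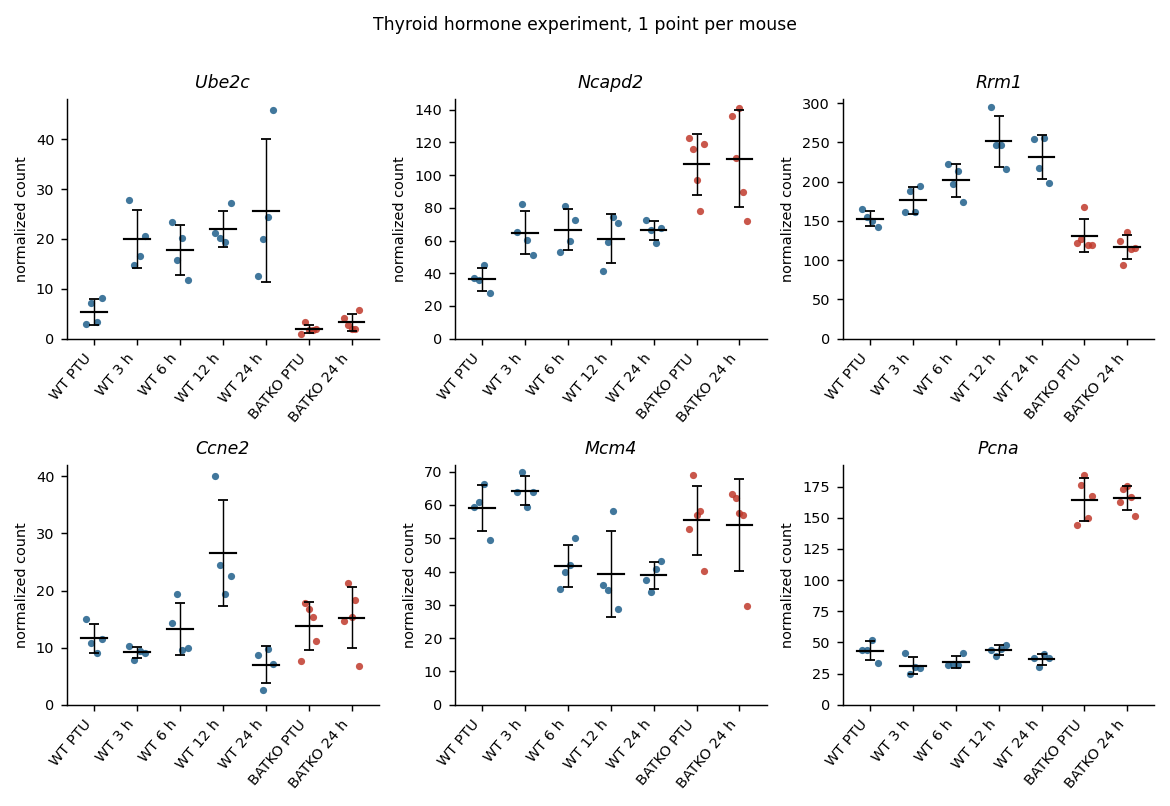
Normalised counts of 6 genes (vertical axes) in each mouse of the 7 TH groups (horizontal axes), with WT mice in blue and BATKO mice in red. The horizontal line is the group mean and the bars its SD. Ube2c is higher in all treated WT mice than in the PTU-fed ones, Ccne2 stands highest at 12 h, and Pcna is high in both BATKO groups.

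Among 101 other cell cycle and replication genes, listed by role, 60 were tested in this course. At 24 h, 14 rose and 10 fell, or 40% called beside 32.7% of all genes. The counts were 4 and 4 in the 3 h mice (13.3% beside 9.19%), 5 and 12 in the 6 h mice (28.3% beside 23%) and 8 and 9 in the 12 h mice (28.3% beside 25.7%). Gmnn, which encodes geminin, the inhibitor of a replication licensing factor, rose at all 4 times, by 0.78, 1.05, 1.39 and 1.11 on the log2 scale (adjusted p = 1.61e-06 at 12 h). Cenpa, the histone variant of centromeres, rose from a mean of 64.6 normalised counts to 334 at 24 h (log2 fold change 2.37, adjusted p = 6.28e-07). Cdkn1c, a CDK inhibitor, rose most at 12 h (1.35, adjusted p = 1.25e-05), and E2f6, a repressor of the E2F family, rose at 6, 12 and 24 h. Of the 7 G1 cyclins and kinases, 1 rose and 3 fell at 24 h, with Ccnd2 at -0.74 (adjusted p = 0.00235). Licensing genes split evenly at 24 h, with 3 higher and 3 lower of 12 tested, and the helicase partner Gins2 rose by 1.81 (adjusted p = 0.000607).

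Markers of other cells moved with these genes, and their part in the gene values was not tested. At 3 h, the haemoglobin genes Hba-a1 and Hba-a2 were called higher, by 1.48 (adjusted p = 0.0199) and 1.46 (adjusted p = 0.0209) on the log2 scale, with all 4 mice above the PTU-fed mice, and the neutrophil gene S100a8 was called higher as well. Mouse 11 was the highest, with a summed level of 1032 normalised counts over the neutrophil markers, beside 21.8 to 23 in the other 3 mice, and 16430 over the erythroid markers. Without it, Ube2c and Ncapd2 were still the 2 genes called at 3 h, at log2 fold changes of 1.87 (adjusted p = 0.0138) and 0.89 (adjusted p = 0.0123). The brown adipocyte markers Ucp1 and Ppargc1a were called higher at 3 h (0.87 and 1.42) and at 6 h (0.94 and 1.86). At 6 h Plin1 was called lower (-0.33) and the endothelial gene Tie1 higher (0.46). Of the 8 brown adipocyte markers, 1 was called higher and 3 lower at 12 h, and 2 higher and 5 lower at 24 h, with Adipoq at -0.70 and -2.14 and Ucp1 at 1.32 and 0.93. Of the 7 progenitor and fibroblast markers, 2 were called lower at 12 h (Dpp4 at -1.39, Pi16 at -1.01) and 2 at 24 h (Dpp4 at -1.07, Lum at -0.40). Endothelial markers went both ways, with 1 higher and 1 lower of 6 at 12 h and 2 higher and 1 lower at 24 h, and 1 of 8 macrophage markers, Cd68, was called higher at 24 h (0.89).

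In BATKO mice, TH for 24 h gave no call among the 14 genes by edgeR, with 0 at an unadjusted p below 0.05 and 0 by DESeq2, and 0% of all 14178 genes were called. The log2 fold changes were 0.67 for Ube2c (SE 0.53, adjusted p = 0.967), 0.05 for Ncapd2 (SE 0.17, adjusted p = 0.998), -0.17 for Rrm1 (SE 0.12, adjusted p = 0.963) and -0.03 for Mcm4 (SE 0.18, adjusted p = 0.999). Rrm1 had 122, 127, 168, 119 and 120 normalised counts in the PTU-fed BATKO mice and 125, 93.9, 136, 115 and 115 after TH. These ranges overlapped, unlike those of the WT mice.

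The difference between the genotypes in the 24 h response was tested directly. Of the 14 genes, 1 passed with a lower response in BATKO mice, where 12.3% of all genes passed (5.12% higher and 7.15% lower), and 5 had an unadjusted p below 0.05. With 1 mouse left out, 1 to 3 genes passed, with 3 without PTU-fed WT mouse 4 and 2 without PTU-fed BATKO mouse 11 or without mouse 7 or 9 of the BATKO mice after TH. Rrm1 responded less in BATKO than in WT mice by 0.76 on the log2 scale (BATKO minus WT -0.76, SE 0.17, adjusted p = 0.00399). For Ncapd2 the difference was -0.80 (SE 0.28, adjusted p = 0.0635), for Ube2c -1.64 (SE 0.70, adjusted p = 0.123) and for Mcm4 0.57 (SE 0.27, adjusted p = 0.176), and these 3 missed the threshold with all mice. Of the 66 related genes tested, 0 were called in BATKO mice by edgeR, with 4 at an unadjusted p below 0.05, and 6 differed between the genotypes, with Cenpa at -1.95 (adjusted p = 0.00153), Gmnn at -0.88 (adjusted p = 0.0174) and Gins2 at -1.87 (adjusted p = 0.0119).

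Before any TH, PTU-fed BATKO mice differed from PTU-fed WT mice in 5 of the 14 genes, 4 higher and 1 lower. Without a filter, which tests more genes, more of the set were called, as given under the dependence on processing. The background was high, since 70.3% of all genes tested were called (36.4% higher and 33.9% lower), and genotype cannot be told apart from anything else that separated these mice. Pcna (chromosome 2, 132249162 to 132253314, − strand) had 44.2, 44.3, 52.3 and 33.4 normalised counts in WT and 144, 177, 184, 150 and 168 in BATKO mice. These groups lay far apart (log2 fold change 1.91, SE 0.14, adjusted p = 3.01e-13). The copy Pcna-ps2 was also higher in BATKO mice, with means of 155 and 215 (0.48, adjusted p = 6.54e-05), a smaller difference than that of Pcna.

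Ncapd2 had 27.6 to 44.8 normalised counts in PTU-fed WT and 78.1 to 123 in PTU-fed BATKO mice (log2 fold change 1.53, SE 0.21, adjusted p = 1.5e-07). Mcm7, a helicase subunit, had 30.1, 27.5, 27.4 and 17.3 normalised counts in WT and 54.8, 68.0, 84.6, 51.8 and 60.8 in BATKO mice (1.31, SE 0.23, adjusted p = 7.43e-06). Ccne1, the other cyclin E, had 5.76 to 10.8 in WT and 19.1 to 37.3 in BATKO mice (1.61, SE 0.36, adjusted p = 0.000208). None of these 3 genes overlapped between genotypes. Mcm7 shares 321 exonic bases with Ap4m1 on the opposite strand, which was itself called higher (0.41, adjusted p = 0.0189). Ube2c was lower, at 0.961 to 3.24 in BATKO mice (-1.36, SE 0.52, adjusted p = 0.0208), a call lost in 2 of 9 fits with 1 mouse left out. Endothelial markers moved with these genes, with 6 of 6 called higher and a summed level of 5792 to 6609 in BATKO against 4242 to 4560 in WT mice. Brown adipocyte markers summed to 129854 to 156342 against 188216 to 216120 in WT. Their part in the differences was not tested, and in whole tissue fewer cells of a type and less RNA per cell cannot be told apart.

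Among the 66 related genes, 13 were higher and 28 lower in PTU-fed BATKO mice, which is 62.1% called beside 70.3% of all genes. The pocket proteins and E2F factors held 7 of these lower genes and no higher one, out of 11 tested, with Rb1, the retinoblastoma protein that restrains E2F, at -1.58 (adjusted p = 3.67e-12) and E2f5 at -1.51 (adjusted p = 5.81e-13). DNA polymerases and their factors had 7 higher and 2 lower of 15, with Rpa1, a subunit of the single-strand binding protein, at 1.03.

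Cold lowered several genes of the set and raised 2 of them, in both genotypes. Of the 17 genes tested, 8 were called in CTRL mice, 2 higher and 6 lower, where 49.1% of all 13267 genes were called (26.5% higher and 22.6% lower). In BATKO mice 8 were also called, 2 higher and 6 lower, where 40.3% of all genes were (21.4% higher and 18.9% lower). Without a filter, which tests more genes, more of the set were called in each genotype, as given under the dependence on processing. The median log2 fold change of the 17 genes was -0.61 in each genotype, beside -0.01 and -0.02 over all genes. Rrm1 and Tyms, the synthase that makes thymidylate for DNA, rose in both. Ccne2, Mcm4 and Nusap1, a microtubule-binding spindle protein, fell in both, which is 3 of the 6 lower genes in each genotype.

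Tyms (chromosome 5, 30058202 to 30073617, − strand) had 7.81, 14.8, 13.6 and 14.8 normalised counts in CTRL mice at 30 °C and 46.6, 40.1 and 50.2 at 4 °C. In BATKO mice it had 13.1 to 20.8 at 30 °C and 28.1, 51.8, 37.0 and 26.6 at 4 °C. Every mouse in the cold stood above every mouse at 30 °C. The log2 fold change was 1.84 in CTRL (SE 0.28, adjusted p = 6.05e-05) and 1.10 in BATKO mice (SE 0.25, adjusted p = 0.00206). A processed copy, Tyms-ps, was under the filter, and its mean was 3.27 at 30 °C and 11.1 at 4 °C in CTRL and 2.35 and 8.81 in BATKO mice.

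Rrm1 had 79.0, 93.9, 121 and 96.1 normalised counts in CTRL mice at 30 °C and 152, 182 and 208 at 4 °C. In BATKO mice it had 68.6 to 111 at 30 °C and 189, 186, 187 and 132 at 4 °C, again without overlap. The log2 fold change was 0.89 in CTRL (SE 0.19, adjusted p = 0.000978) and 0.90 in BATKO mice (SE 0.17, adjusted p = 0.000444). The small subunit of the same enzyme had values below 0. Rrm2 fell by 1.53 on the log2 scale in BATKO mice (SE 0.37, adjusted p = 0.00393), and its value in CTRL mice was -0.90 (adjusted p = 0.0747). Rrm2b, the alternative small subunit that p53 induces, fell too, by 1.04 in CTRL (adjusted p = 0.000252) and 0.78 in BATKO mice (adjusted p = 0.00128). It is no member of the set and was looked up after its values were seen.

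Mcm4 had 72.9, 75.7, 81.3 and 47.5 normalised counts in CTRL mice at 30 °C and 23.3, 25.4 and 18.7 at 4 °C (log2 fold change -1.63, SE 0.25, adjusted p = 6.32e-05). In BATKO mice it had 54.1 to 93.6 at 30 °C and 28.7 to 36.8 at 4 °C (-1.11, SE 0.21, adjusted p = 0.000561). Ccne2 had 17.2 to 24.3 in CTRL mice at 30 °C and 7.36, 4.01 and 7.00 at 4 °C (-1.70, SE 0.39, adjusted p = 0.00182). Neither gene overlapped between the temperatures in CTRL mice, and in BATKO mice Ccne2 changed by -1.42 (SE 0.34, adjusted p = 0.00336).

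Nusap1 (chromosome 2, 119618298 to 119651244, + strand) had 16.5, 23.5, 24.4 and 21.1 normalised counts in CTRL mice at 30 °C and 4.91, 4.01 and 2.33 at 4 °C, the latter 2 to 4 reads (log2 fold change -2.48, SE 0.42, adjusted p = 0.000137). In BATKO mice it had 13.2 to 22.2 at 30 °C and 9.74, 9.42, 2.39 and 7.16 at 4 °C (-1.11, SE 0.33, adjusted p = 0.0125). Each mouse in the cold was below each mouse at 30 °C of its genotype. Mki67, the gene of the proliferation antigen Ki-67, had 13.9, 48.7, 28 and 16.9 in CTRL mice at 30 °C and 8.59, 8.01 and 5.83 at 4 °C (-1.84, SE 0.61, adjusted p = 0.0189). Its value in BATKO mice was -1.07 (adjusted p = 0.0817).

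The other calls were each made in 1 genotype. Pcna and Smc4 fell in CTRL mice, by 1.00 (adjusted p = 0.00376) and 1.06 (adjusted p = 0.0117) on the log2 scale, and Smc2 and Ncapd2 fell in BATKO mice, by 0.99 (adjusted p = 0.00403) and 0.68 (adjusted p = 0.00644). The copy Pcna-ps2 fell by 0.96 in CTRL mice as well (adjusted p = 0.000795). No gene of the set passed the test of the difference between genotypes in the cold response, by edgeR or by DESeq2, where 1.12% of all genes passed. At an unadjusted p below 0.05 there was 1, Nusap1, with a difference of 1.37 (SE 0.54, adjusted p = 0.184). For Tyms the difference was -0.74 (SE 0.38, adjusted p = 0.308), and for Rrm1 it was 0.01 (SE 0.25, adjusted p = 0.984).

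**Figure D4:**
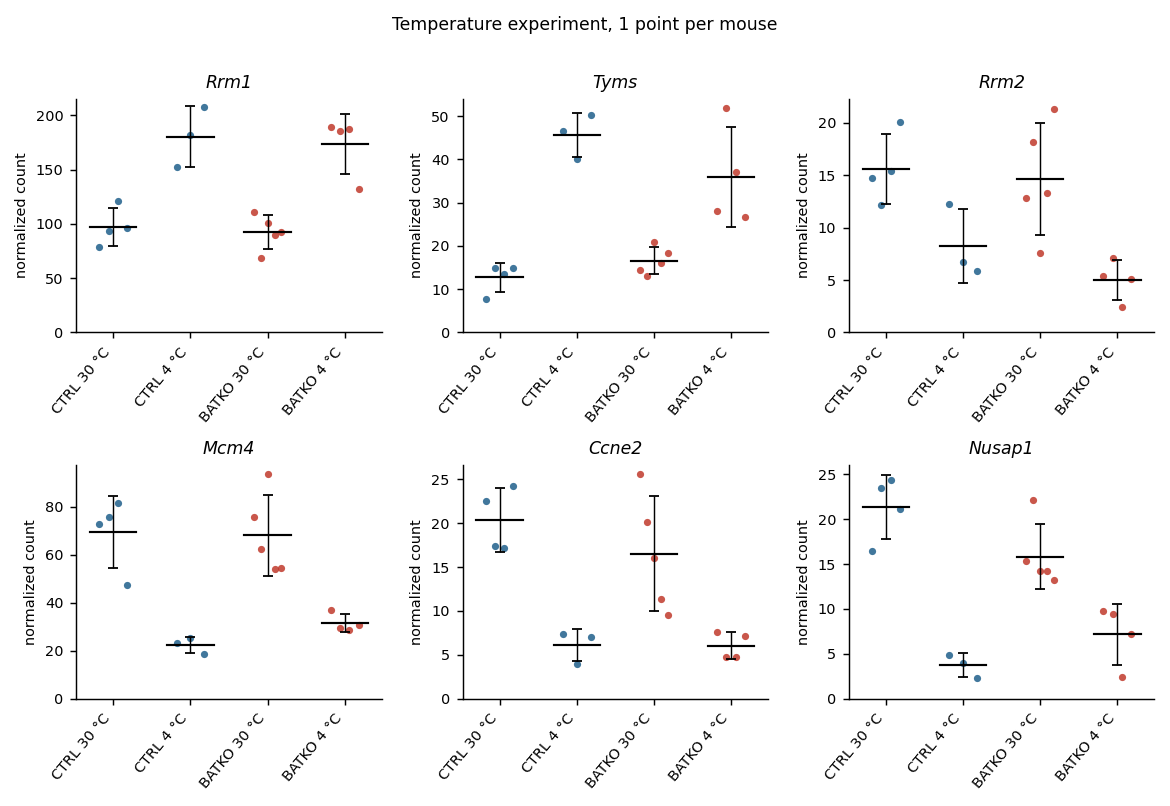
Normalised counts of 6 genes (vertical axes) in each mouse of the 4 temperature groups (horizontal axes), with CTRL mice in blue and BATKO mice in red. The horizontal line is the group mean and the bars its SD. Rrm1 and Tyms are higher at 4 °C in both genotypes, while Mcm4, Ccne2 and Nusap1 are lower.

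The 25 genes under the filter were not tested, and 5 of them had a higher mean at 4 °C than at 30 °C in CTRL mice and 4 in BATKO mice. Top2a had 4.34, 9.57, 11.7 and 8.45 normalised counts in CTRL mice at 30 °C and 2.45, 0 and 2.33 at 4 °C, and was not tested. The level summed over the 42 genes was 809 to 966 at 30 °C and 638 to 705 at 4 °C in CTRL mice, and 745 to 947 and 616 to 712 in BATKO mice.

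Other cell type markers moved with temperature. Brown adipocyte markers summed to 63258 to 78642 normalised counts in CTRL mice at 30 °C and 274410 to 312913 at 4 °C, and to 63027 to 76355 and 182546 to 277520 in BATKO mice. In each genotype 7 of the 8 were called higher, with Ucp1 the largest part of the sum at 4 °C, while Adipoq fell by 1.07 on the log2 scale in CTRL mice (adjusted p = 5.42e-05) and was at -0.28 in BATKO mice (adjusted p = 0.123). Progenitor and fibroblast markers summed to 3418 to 4898 at 30 °C and 2548 to 2781 at 4 °C in CTRL mice, with 3 of 6 tested called lower. In CTRL mice the macrophage genes Cd14 (-1.29) and Lyz2 (-0.83) were called lower and the other macrophage markers were not called. Endothelial markers went both ways (Kdr 1.14, Tie1 -0.79), as did mural markers (Acta2 1.07, Myh11 0.56, Rgs5 -0.97). The erythroid genes Hbb-bs (2.41), Hbb-bt (2.56) and Alas2 (2.45) were called higher, and Hba-a1 and Hba-a2 were not called. The part of these markers in the gene values was not tested.

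Among the related genes called in the cold, more fell than rose. Of 64 tested, 10 rose and 24 fell in CTRL mice, which is 53.1% called beside 49.1% of all genes. In BATKO mice 7 rose and 21 fell, 43.8% beside 40.3% of all genes. Myc, a growth factor-induced transcription factor, fell by 3.53 on the log2 scale in CTRL (adjusted p = 7.37e-06) and by 3.40 in BATKO mice (adjusted p = 3.97e-06). Wee1, the kinase that holds Cdk1 inactive, fell by 3.53 (adjusted p = 3.97e-07) and 2.08 (adjusted p = 8.67e-06). E2f2, an activating E2F factor, rose by 3.99 (adjusted p = 9e-08) and 2.06 (adjusted p = 1.55e-05), beside erythroid marker sums of 8331 to 18595 at 4 °C against 1924 to 3615 at 30 °C in CTRL mice, whose part was not tested. DNA polymerases and their factors had 1 higher and 6 lower of 15 in CTRL mice and 0 higher and 5 lower in BATKO mice, with the ligase Lig1 at -1.79 and -1.39. CDK inhibitors had 2 higher and 3 lower of 6 in CTRL mice, with Cdkn1a, the p53 target p21, at 1.93 (adjusted p = 0.000871) and Cdkn1b at -1.18 (adjusted p = 7.63e-05).

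No gene of the set was called between BATKO and CTRL mice kept at the same temperature. At 4 °C 0 of 17 genes were called by edgeR, with 0 at an unadjusted p below 0.05 and 0 by DESeq2, and 2.16% of all genes were called. At 30 °C the counts were again 0, 0 and 0, with 0.00754% of all genes called. The median log2 difference was -0.03 at 4 °C and 0.01 at 30 °C. At 4 °C, Mcm4 had 28.7 to 36.8 normalised counts in BATKO and 18.7 to 25.4 in CTRL mice, without overlap (log2 difference 0.49, SE 0.26, adjusted p = 0.37), and Mcm5, under the filter, had means of 3.77 and 11.2, also without overlap.

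HFD raised 2 genes of the set in CTRL mice past the test, and most of the others had higher means without passing it. Of the 30 genes tested, 2 were called, both higher, where 3.94% of all 12932 genes were called (1.89% higher and 2.04% lower). Of the 30, 27 had a log2 fold change above 0 and 17 an unadjusted p below 0.05, and their median was 1.02 beside 0.01 over all genes. The filter took the mean over all mice of the diet experiment, so genes low in CTRL mice on chow could pass through the other groups. Pbk had 1 to 7 reads in the CTRL mice on chow and Cdk1 3 to 12. The median of the tested genes is not free of this choice. Of all 42 genes, 37 had a higher mean on HFD. The number of calls depended on the processing: DESeq2 called 13, with 6.75% of all genes called, and edgeR without a filter called 19 of 42, with 4.93% of all genes.

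Pbk, a mitotic kinase (chromosome 14, 65805837 to 65817822, + strand), had 5.50, 4.05, 6.52 and 0.909 normalised counts in CTRL mice on chow and 18.7, 8.69, 40.8 and 8.94 on HFD (log2 fold change 2.17, SE 0.55, adjusted p = 0.0408). Mcm7 (chromosome 5, 138164583 to 138172422, − strand) had 20.2, 12.1, 14.9 and 12.7 on chow and 31.9, 34.8, 30.1 and 23.5 on HFD (1.00, SE 0.26, adjusted p = 0.0490). The groups overlapped for neither gene. The call of Pbk was lost in 5 of 8 fits with 1 mouse left out and that of Mcm7 in 7 of 8.

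Other mitotic genes had higher means in the same comparison and missed the threshold. Mki67 had 77.0, 31.4, 27 and 20.9 normalised counts on chow and 95.7, 55.4, 242 and 91.6 on HFD (1.64, SE 0.45, adjusted p = 0.0597). Top2a had 28.4, 11.1, 6.52 and 6.36 on chow and 33.0, 22.8, 80.7 and 23.5 on HFD (1.61, SE 0.55, adjusted p = 0.109). Both genes had 1 chow mouse, mouse 1, inside the HFD range. For Cdk1, the kinase that starts mitosis, the log2 fold change was 1.89 (SE 0.57, adjusted p = 0.0753), and for Ccna2, its cyclin A partner, 1.58 (SE 0.50, adjusted p = 0.0888). Bub1b, a checkpoint kinase, overlapped between the diets, with 6.36 to 18.3 on chow and 11.2 to 20.4 on HFD. Rrm1 (0.08), Mcm4 (-0.03), Ncapd2 (0.06), Pcna (-0.00) and Smc4 (-0.13) stayed near 0.

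Mouse 10 on HFD stood apart from its group. Its level summed over the 42 genes was 2291 normalised counts, beside 941, 1014 and 1138 in the other 3 CTRL mice on HFD, 704 to 757 in 3 CTRL mice on chow and 1085 in mouse 1 on chow. Its Ccna2 was 117 beside 25.0 to 31.9. Ccna2 shares 12.5% of its exonic bases with Exosc9 on the opposite strand, which had a log2 fold change of 0.01 on HFD and was not called. Its library held 8345253 reads, 45.2% of them mitochondrial, within the range of the experiment. Without it 0 of 28 genes were called by edgeR and 0 by DESeq2, and the median log2 fold change was 0.55 beside -0.01 over all genes.

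Macrophage markers moved with the same mice. Their summed level was 771 to 890 in CTRL mice on chow and 1120 to 2483 on HFD, highest in mouse 10, with 1 of 8 markers called higher. Progenitor and fibroblast markers summed to 2691 to 3612 on chow and 3726 to 5359 on HFD, with 2 of 7 called higher. The 2 were the collagen genes Col1a1 (0.92, adjusted p = 0.0142) and Col1a2 (0.74, adjusted p = 0.0399), while Pi16 (-1.08, adjusted p = 0.186), Dpp4 (-0.45, adjusted p = 0.494) and Dcn (-0.15, adjusted p = 0.584) had values below 0. Lymphocyte markers stayed at 8.94 to 34.8 in the diet experiment, and neutrophil markers summed to 26.1 to 101 in CTRL mice on chow and 29.7 to 65.2 on HFD, with S100a8 and S100a9 detected and Camp and Ltf at 0 in both groups. The part of these cells in the values was not tested.

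In BATKO mice the diet gave no call. By edgeR 0 of 30 genes passed, with 3 at an unadjusted p below 0.05, where 0.0696% of all genes were called, and DESeq2 called 0. Of the 30, 22 had a log2 fold change below 0, and the median was -0.29. Mki67 had 111 and 124 normalised counts in the 2 mice on chow and 65.4, 145 and 115 in the 3 on HFD (-0.10, SE 0.54, adjusted p = 0.947). Pbk had 20.6 and 19.0 on chow and 8.64, 15.7 and 14.7 on HFD (-0.57, SE 0.60, adjusted p = 0.681). For Pbk the ranges did not overlap and for Mki67 they did.

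The 2 BATKO mice on chow stood higher than most CTRL mice on chow, without a call by edgeR with the filter. Against CTRL mice on chow, 29 of the 30 genes had a log2 difference above 0 with a median of 0.99, beside -0.03 over all genes, and 40 of all 42 had a higher mean. No gene was called by edgeR, where 0% of all genes were, 12 had an unadjusted p below 0.05 and DESeq2 called 1, with 0.255% of all genes. Without a filter on the mean count, edgeR did call genes of the set here, as given under the dependence on processing. The log2 difference was 1.83 for Kif11, a spindle motor (SE 0.41, adjusted p = 0.312), and 2.19 for Pbk (SE 0.64, adjusted p = 0.349). The same CTRL mice on chow were the reference for HFD in CTRL mice and entered the difference of the HFD response. The values of these comparisons are therefore not independent of each other. The summed level was 1343 and 1411 in the 2 BATKO mice on chow. Macrophage markers summed to 1656 to 2131 in these mice and to 771 to 890 in CTRL mice on chow, with 0 of 8 called. The part of these cells was not tested.

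**Figure D5:**
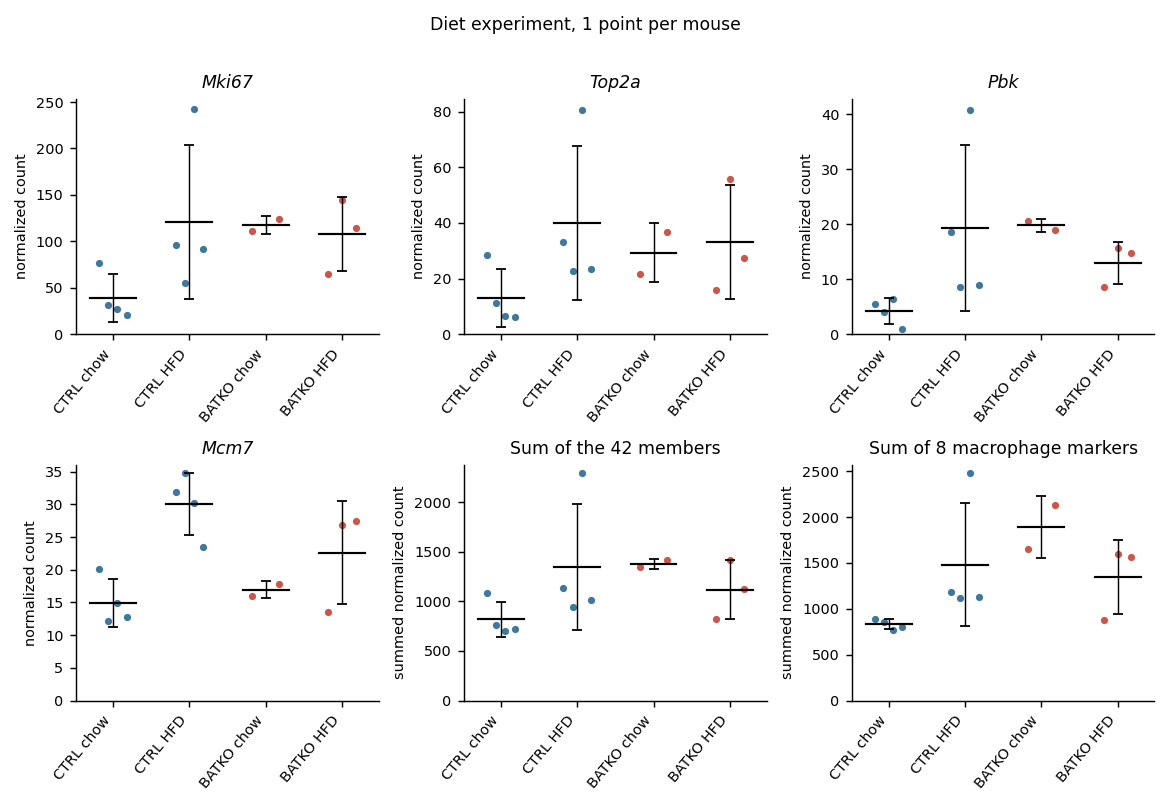
Normalised counts of 4 genes, of the 42 genes summed and of 8 macrophage markers summed (vertical axes) in each mouse of the 4 diet groups (horizontal axes), with CTRL mice in blue and BATKO mice in red. The horizontal line is the group mean and the bars its SD. Mouse 10 is the highest CTRL mouse on HFD in 5 of the 6 panels, Mcm7 being the exception, and the BATKO mice on chow lie above most CTRL mice on chow.

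On HFD, BATKO and CTRL mice differed in 0 of 30 genes by edgeR, with 1 at an unadjusted p below 0.05 and 0 by DESeq2, where 0% of all genes were called. The test of the difference in the HFD response gave 0 calls by edgeR and by DESeq2, with 10 genes at an unadjusted p below 0.05 and 0% of all genes called. Without a filter on the mean count, edgeR did call genes of the set for this difference, as given under the dependence on processing. In that difference 29 of the 30 genes lay below 0, with a median of -1.12, and without mouse 10 the median was -0.75. Pbk had the value -2.75 (SE 0.82, adjusted p = 0.721) and Mki67 -1.74 (SE 0.70, adjusted p = 0.807).

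Among 68 related genes tested in the diet experiment, 2 rose and 3 fell on HFD in CTRL mice, which is 7.35% called beside 3.94% of all genes. The other 4 diet comparisons gave 0 calls by edgeR, with 4 to 21 genes at an unadjusted p below 0.05, beside 0% to 0.0696% of all genes called. Ccnd1, the cyclin D that couples growth signals to the cell cycle, rose by 1.33 on the log2 scale (adjusted p = 0.00505), and E2f7, a repressor of E2F targets, rose by 1.23 (adjusted p = 0.00635). Wee1 fell by 0.66 (adjusted p = 0.0167), the E2F partner Tfdp2 by 0.55 (adjusted p = 0.0255) and the pocket protein Rbl2 by 0.47 (adjusted p = 0.0274).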

How the data were processed

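BAT RNA was extracted with Trizol, libraries were made with the Lexogen total RNA SENSE kit and sequenced on an Illumina NextSeq instrument. Per the submitters' processing notes, the authors aligned reads with Bowtie2 2.3.2.2 to mm10 (GRCm38), removed reads of low alignment quality and deposited raw counts per gene from htseqcount, which are whole numbers with no normalisation. The annotation and the strand setting are not given in the sources used here. Mitochondrial reads stayed in the library totals.

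From the counts, each experiment was normalised by TMM and genes with a mean normalised count above 10 were tested across all genes with the quasi-likelihood test of edgeR 4.0.16 (R 4.3.3, limma 3.58.1), with Benjamini-Hochberg adjustment over every gene tested and a threshold of 0.05. The 4 times in WT mice were fitted over the 20 WT mice, and the other comparisons over all mice of their experiment. SE is that of the log2 fold change, as the fold change divided by the square root of F. Groups were taken from the sample labels, and 17 comparisons were made. Exon positions and overlaps came from the GRCm38 annotation and promoter windows from RefSeq (GRCm38.p6).

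The members, the related genes and the marker lists were chosen with earlier results of these data known. Genes were named as the highest of each role, Mki67 and Top2a, and, in each comparison, the 3 called genes with the lowest adjusted p in each direction, with the other calls by fold change and at most 2 related genes for each role. Alternatives were DESeq2 1.42.0, size factors of the RLE method, no filter, a mean above 50, only the groups compared, all 30 TH mice, each mouse left out, and a replicate block. The statistical steps were tested on simulated data.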

Additional observations from a re-analysis of the deposited data

Results flagged for a closer look

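Single mice that stood far from the other mice of their group were looked for in 132 groups of values (the summed level and the genes named for their level, in each group of 4 or 5 mice), and 14 such values were found, from 11 distinct mice, where chance gives about 5% of groups. The share expected by chance does not hold for genes with few reads, where 1 read can make such a gap. The values of 1 mouse, and the summed level and its genes, are not independent of each other.

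In the diet experiment, mouse 10 of the CTRL mice on HFD was high in the summed level of the 42 genes (2291 normalised counts, the next 1138), in Ccna2 (117, the next 31.9) and in Rrm1 (163, the next 97.2). Mouse 1 of the CTRL mice on chow had a summed level of 1085, the next 757. In the TH experiment, mouse 26 of the WT mice at 24 h had the lowest summed level, 643, the next 765. Mouse 27 of that group had 1.95 for Bub1b, which was 2 reads, the next 6.24. Mouse 11 at 3 h, the mouse with high neutrophil and erythroid markers, was low in Smc4 (53.8, the next 88.4) and high in Nusap1 (11.6, the next 5.20). Mouse 19 at 12 h had 1.06 for Top2a, which was 1 read, where the other mice of its group had 0. Among BATKO mice after TH, mouse 15 had 29.6 for Mcm4, the next 56.8, and mouse 7 had 8.11 for Ccna2, the next 3.42. Mouse 4 of the PTU-fed BATKO mice had 168 for Rrm1, the next 127. In the temperature experiment, mouse 12 of the BATKO mice at 4 °C had 132 for Rrm1, the next 186, and mouse 14 of the BATKO mice at 30 °C had 22.2 for Nusap1, the next 15.3.

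The 24 h TH response of Rrm1 differed between BATKO and WT mice by -0.76 on the log2 scale (SE 0.17, adjusted p = 0.00399). On HFD, 3 genes had differences of opposite sign in the 2 genotypes and were picked for this pattern, with every HFD mouse above the mean of the chow mice in CTRL mice and every HFD mouse below it in BATKO mice. The difference of mean normalised counts was 33.9 in CTRL and -18.1 in BATKO mice for Ccna2, 15.0 and -6.79 for Pbk, and 17.6 and -11.3 for Rrm2. None was called in BATKO mice, which had 2 mice on chow, and the test of the difference passed for none of these 3 (adjusted p = 0.759, 0.721 and 0.838).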

How the results depend on the processing

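The direction of the named genes was stable and the number of calls was not. For the named genes, 413 values under alternatives kept their direction and side of the threshold, 45 kept their direction but missed the threshold, and 0 reversed. Many of these genes were named for their calls and the alternatives used the same mice. A reversal was therefore unlikely from the start, and the other genes are not judged by this. Without a filter on the mean count, the calls were 4 for TH at 6 h, 9 for the PTU genotypes, 15 and 13 for cold in CTRL and BATKO mice, 19 for HFD in CTRL mice, 5 for BATKO against CTRL on chow and 3 for the difference of the HFD response. With a mean above 50, which tests fewer genes, they were 1, 3, 2 and 2 for TH at 3, 6, 12 and 24 h, 2 for the PTU genotypes, 3 and 3 for cold, and 0 for HFD in CTRL mice. Without a filter, 10.4% of all genes were called for TH at 6 h and 4.93% for HFD in CTRL mice. For the other counts without a filter, and for those with a mean above 50, the share of all genes is not given. Those counts cannot be set against a background. DESeq2 called 13 for HFD in CTRL mice and 1 for BATKO against CTRL on chow. With only the groups compared, these were 1 and 1. Chosen after seeing the data, DESeq2 without mouse 10 called 0 for HFD in CTRL mice, and without a filter and without mouse 10 the calls were 3 for HFD in CTRL mice and 1 for the difference of the HFD response. The cause of these shifts was not tested. With each mouse left out in turn, the calls ranged from 1 to 3 for TH at 3 h (1 without PTU-fed WT mouse 5 or 3 h mouse 8), 4 to 6 at 6 h (4 without mouse 15), 4 to 5 at 12 h, 4 to 5 at 24 h, 1 to 3 for the difference of the TH response (3 without PTU-fed WT mouse 4, 2 without BATKO mouse 11, 7 or 9), 4 to 6 for the PTU genotypes, 7 to 8 and 8 to 11 for cold in CTRL and BATKO mice, and 0 to 4 for HFD in CTRL mice (0 without chow mouse 2 or 4 or HFD mouse 10, 1 without chow mouse 3 or HFD mouse 7 or 11, 4 without HFD mouse 9). The other comparisons stayed at 0 to 0. PTU-fed WT and BATKO mice share the numbers 2, 3 and 4, but the correlations of same-numbered mice were 0.0069, -0.263 and -0.0699, so the numbers pair nothing. With the replicate block, 5 of 15 genes tested were called, 5 higher and 0 lower, and Pcna differed by 1.84 (adjusted p = 6.33e-05). The low counts limit the mitotic genes most, and BATKO mice on chow had 2 libraries.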
